A study of Mus musculus with 18 samples.

Results

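The response of control macrophages to cells that were not dying was described across genes and pathways. The members are 6 of the 18 libraries of the series: 3 from bone marrow-derived macrophages (BMDMs) labelled WT that met non-apoptotic cells (NACs), and 3 from BMDMs of the same label that were left untreated. The control genotype, labelled WT, is called HDAC3f/f in the study's text and comes from mice on a C57BL/6J background in which loxP sites flank an exon of Hdac3; no Cre is named for it. The BMDMs were grown from femur marrow in medium conditioned by L929 fibroblasts. The NACs were K562 cells, an established human leukemia line, given without the UVB light that made apoptotic cells elsewhere in the series. They were left on the macrophages for 45 min and washed off, and RNA was taken 5 h later. The untreated BMDMs received no cells. For 1 comparison the text also uses the same pair of treatments in BMDMs labelled KO, in which Cre expressed from the Lyz2 locus acts on the floxed Hdac3. RNA was counted per mouse gene, and p-values measure the spread between the 3 libraries of a group.

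Macrophages take up dying cells by efferocytosis, in which receptors and bridging proteins bind phosphatidylserine on the surface of the dying cell, the actin skeleton engulfs it, and lysosomes digest it. Living cells normally carry little of that signal and display proteins such as CD47 that inhibit uptake. A macrophage that meets living cells is therefore the usual control for one that meets dying cells, and it also shows what contact with foreign cells, and the handling that comes with it, does to the transcriptome. Macrophages read such contact with pattern recognition receptors, whose signals run through NF-kB and interferon factors to cytokines and antiviral genes.

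Hdac3, a histone deacetylase, is the gene targeted in the series. The counts are of the whole gene, whereas the loxP sites flank only an exon of it. They do not separate the deleted part from the rest and so cannot check the genotype labels. It had 3.61, 48.9 and 31.0 CPM, counts per library of equal size after TMM scaling, in untreated replicates 1, 2 and 3 and 48.1, 44.7 and 11.5 CPM with NACs. The lowest library of each group was therefore far below the other 2, although all 6 carry the control label. In libraries labelled KO, scaled by library total, Hdac3 had 32.7, 8.44 and 59.1 CPM untreated and 4.85, 36.3 and 54.3 CPM with NACs, and the range overlapped that of libraries labelled WT. Libraries are named by their labels throughout, and every direction below is that of libraries labelled WT with NACs relative to libraries labelled WT and untreated.

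The 6 libraries held between 11836451 and 18306347 counts. Their TMM factors were 1.01648, 1.37679 and 1.04229 untreated and 0.765263, 1.01625 and 0.881532 with NACs. CPM is divided by that factor, so all genes tested summed to more CPM in every NACs library than in any untreated one. For NACs replicate 2 the margin was slight. Summed levels of gene lists below are on this scale. NACs replicate 2 stood apart from the other libraries of its group, and whether its treatment label is right was not tested; the counts of called genes with and without it are both given. Its closest library was untreated replicate 3 (Pearson r = 0.983 over log2(CPM + 1) of the genes tested, the highest of the 15 pairs), whereas its r was 0.947 with NACs replicate 1 and 0.945 with NACs replicate 3. On the first principal component, which held 62.1% of the variance, the untreated libraries lay at -51.5, -48.1 and -16.2 and the NACs libraries at 65.2, -3.77 and 54.5. The share of counts on mitochondrial genes was 0.621%, 0.570% and 0.496% untreated and 0.325%, 0.404% and 0.294% with NACs, without overlap (exact permutation test, two-sided p = 0.1, the smallest that 3 libraries against 3 allow). Ribosomal protein genes took 12.8%, 10.2% and 11.0% of counts untreated and 9.05%, 10.1% and 6.29% with NACs (p = 0.1, same exact test). The part of these differences in the results was not tested.

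Gene by gene, NACs replicates 1 and 3 moved away from the untreated libraries in both directions, and NACs replicate 2 moved less. Of 11912 genes tested, 1015 passed an adjusted p of 0.05 (8.52%), of which 499 were higher with NACs (4.19%) and 516 lower (4.33%). Each adjusted p given here for these libraries comes from the quasi-likelihood test of edgeR and was adjusted by Benjamini-Hochberg over all genes tested. With size factors of DESeq2 in the same test the calls were 699 higher and 394 lower. The groups did not overlap in 3825 genes (32.1%), 1779 higher (14.9%) and 2046 lower (17.2%).

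These counts rest on which libraries are in the fit. Without NACs replicate 2, 4232 of 12383 genes were called (34.2%), and they held 1006 of the 1015 genes. Without NACs replicate 1 only 21 genes were called, without NACs replicate 3 46, without untreated replicate 1 27 and without untreated replicate 2 32, whereas without untreated replicate 3 there were 1342. Leaving out both libraries low in Hdac3 (untreated replicate 1 and NACs replicate 3) gave 19 calls. When the fit carried an offset that took up GC content and gene length, 0 genes were called by edgeR and 1928 had an unadjusted p under 0.05; with that offset and without NACs replicate 2, 624 genes were called, 191 of them among the 1015. None of the 1015 genes had the opposite sign in any of these fits, whereas 16 had it with the offset and without both libraries low in Hdac3. With the offset 15 had it without NACs replicate 1, 4 without NACs replicate 3, and 1 each without untreated replicate 2 or 3.

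**Figure D1:**
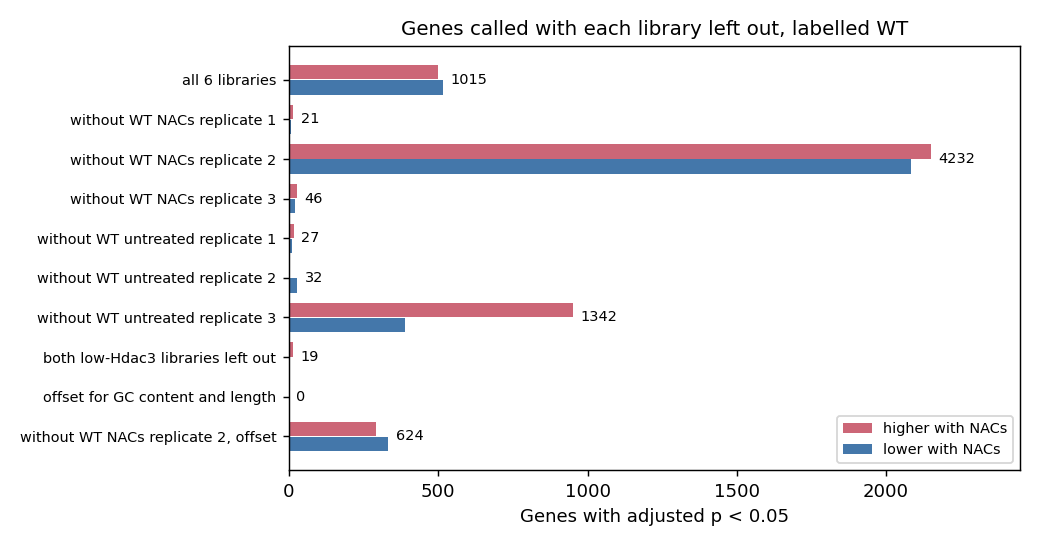
The bars give the number of genes with an adjusted p under 0.05 (horizontal axis), higher (red) or lower (blue) with NACs, for all 6 libraries labelled WT, with each library left out, with both libraries low in Hdac3 left out, and with the GC and length offset; the number beside each pair is their sum. The count was 1015 with all libraries, 4232 without NACs replicate 2, and between 21 and 46 when untreated replicate 1 or 2 or NACs replicate 1 or 3 was left out.

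The largest changes were ranked among called protein-coding genes whose groups did not overlap and whose mean was 10 CPM or more in the higher group. By that rule the 8 largest rises were in F7, Plk1, March9, Itgax, Mgll, Eng, Ak8 and Rhoc, and the 8 largest falls in Ldlrad3, Tlr8, Abcd2, Il13ra1, Clec4e, Cd86, Ngly1 and Hps3. Genes outside the rule, of fewer counts or with overlap, could have larger fitted changes. For the 2 largest rises and the 2 largest falls by this rule the promoter window is printed, so that the sequence around each start site can be read beside its response. Each window runs from 250 bases before to 50 bases after the start in RefSeq (GRCm38.p6), 5′ to 3′ on the strand of the gene, with matches to the searched motifs in capitals. F7 lies on chr8 (window chr8:13025784-13026083, forward strand), Plk1 on chr7 (chr7:122159185-122159484, forward strand), Ldlrad3 on chr2 (chr2:102186411-102186710, reverse strand) and Tlr8 on chrX (chrX:167264280-167264579, reverse strand).
F7: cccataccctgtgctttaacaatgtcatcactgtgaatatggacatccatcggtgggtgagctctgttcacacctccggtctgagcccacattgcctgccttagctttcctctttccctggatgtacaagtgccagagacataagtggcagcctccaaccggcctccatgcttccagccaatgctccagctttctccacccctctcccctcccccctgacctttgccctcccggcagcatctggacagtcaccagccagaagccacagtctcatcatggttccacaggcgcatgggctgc
Plk1: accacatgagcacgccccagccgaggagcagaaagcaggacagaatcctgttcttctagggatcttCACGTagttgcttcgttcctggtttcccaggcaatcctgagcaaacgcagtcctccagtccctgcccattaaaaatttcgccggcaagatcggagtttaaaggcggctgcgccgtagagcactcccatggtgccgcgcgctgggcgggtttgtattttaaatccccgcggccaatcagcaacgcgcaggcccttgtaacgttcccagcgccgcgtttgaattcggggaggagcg
Ldlrad3: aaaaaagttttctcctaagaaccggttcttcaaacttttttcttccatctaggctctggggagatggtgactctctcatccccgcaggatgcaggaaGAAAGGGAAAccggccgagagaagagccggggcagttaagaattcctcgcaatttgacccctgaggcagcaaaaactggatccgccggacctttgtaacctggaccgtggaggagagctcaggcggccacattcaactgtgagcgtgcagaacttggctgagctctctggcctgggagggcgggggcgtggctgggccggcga
Tlr8: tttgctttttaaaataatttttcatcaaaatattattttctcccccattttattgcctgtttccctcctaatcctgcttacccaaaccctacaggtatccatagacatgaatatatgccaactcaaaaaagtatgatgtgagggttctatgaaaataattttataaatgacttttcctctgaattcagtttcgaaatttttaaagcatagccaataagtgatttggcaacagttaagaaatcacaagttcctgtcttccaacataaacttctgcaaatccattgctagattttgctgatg
The capitals mark ACGTG, the core of the hypoxia response element, on the opposite strand in Plk1, and, in Ldlrad3, the interferon-stimulated response element (ISRE), which allows any base at its middle 2 positions. The windows of F7 and Tlr8 held no match to these or to the AP-1 (TGANTCA), CRE (TGACGTCA), SRE (TCACNCCAC), NRF2 (TGACNNNGC), NF-kB, CLEAR and heat shock element motifs, searched on both strands. The core of the hypoxia element can overlap CLEAR. GC content of the window was 57.0% for F7, 57.7% for Plk1, 56.3% for Ldlrad3 and 32.3% for Tlr8. Among all 27025 genes with a window (median GC content 52.8%), 21.8% held ACGTG and 3.99% held the ISRE, and among the 8979 tested genes with a window (median GC content 61.0%) the shares were 29.9% and 3.94%.

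F7 (ENSMUSG00000031443, chr8:13026034-13035809) encodes coagulation factor VII, the protease that starts the tissue factor pathway. It had 1.77, 0.911 and 5.65 CPM untreated and 10.4, 7.20 and 21.9 CPM with NACs, from 16 to 353 counts per library. Every NACs library was above every untreated library, with a log2 fold change of 2.24 ± 0.54 (SE, n = 3 per group, edgeR adjusted p = 0.0236). Plk1 (ENSMUSG00000030867, chr7:122159439-122169873), a kinase of mitosis, had 1.63, 2.85 and 4.05 CPM untreated and 4.87, 4.96 and 23.3 CPM with NACs. NACs replicate 3 held most of that rise, which was 1.96 ± 0.51 (adjusted p = 0.0272). Eng encodes endoglin, a coreceptor of the TGF-beta family. Its level was 10.0, 19.9 and 38.8 CPM untreated and 105, 50.02 and 89.7 CPM with NACs, a log2 change of 1.83 ± 0.40 (adjusted p = 0.00953). Mgll, the lipase of monoacylglycerol, stood at 4.53, 7.63 and 11.2 CPM untreated and at 38.8, 15.9 and 32.2 CPM with NACs, a log2 change of 1.89 ± 0.40 (adjusted p = 0.00775). In Eng and Mgll the lowest NACs library was replicate 2.

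Itgax encodes CD11c, an integrin chain of dendritic cells and some macrophages. It rose from 4.38, 6.61 and 9.86 CPM to 15.5, 13.7 and 50.4 CPM (log2 change 1.93 ± 0.43, adjusted p = 0.0106). The small GTPase Rhoc, which acts on the actin skeleton, rose from 128, 96.8 and 252 CPM to 431, 338 and 875 CPM (1.79 ± 0.43, adjusted p = 0.0156). March9, a membrane ubiquitin ligase, and Ak8, an adenylate kinase, complete the 8 largest rises. March9 went from 2.26, 2.16 and 6.24 to 18.4, 8.60 and 14.3 CPM (1.94 ± 0.44, adjusted p = 0.0100). Ak8 went from 1.98, 2.11 and 4.53 to 6.19, 5.96 and 18.0 CPM (1.81 ± 0.46, adjusted p = 0.0218). In all 8 genes untreated replicate 3 was the highest untreated library, so the gap to the NACs libraries was smallest there.

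Ldlrad3 (ENSMUSG00000048058, chr2:101950203-102186385) encodes a membrane protein with LDL receptor class A domains and had the largest fall by the rule above. Its level was 19, 8.37 and 5.65 CPM untreated and 0.885, 2.56 and 0.993 CPM with NACs, the last from 16 counts (log2 change -2.88 ± 0.50, adjusted p = 0.000863). Tlr8 (ENSMUSG00000040522, chrX:167242696-167264329), an endosomal receptor of single-stranded RNA, was even in the untreated libraries at 34.6, 30.9 and 32.2 CPM. With NACs it had 3.32, 11.3 and 6.95 CPM (-2.17 ± 0.40, adjusted p = 0.00120). Clec4e encodes Mincle, a lectin that senses mycobacterial glycolipid and dead cells. It had 397, 155 and 231 CPM untreated and 76.1, 101 and 14.5 CPM with NACs (-2.04 ± 0.54, adjusted p = 0.0345). Cd86, the costimulatory ligand shown to T cells, had 398, 191 and 269 CPM untreated and 70.6, 117 and 25.4 CPM with NACs (-2.01 ± 0.43, adjusted p = 0.00895). For both genes NACs replicate 2 was the highest NACs library, still under the lowest untreated one.

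Il13ra1, a chain of the receptors for IL-13 and IL-4, had 33.0, 12.7 and 21.7 CPM untreated and 2.54, 10.3 and 3.10 CPM with NACs (-2.07 ± 0.45, adjusted p = 0.0100). NACs replicate 2 lay close under untreated replicate 2. Abcd2, a fatty acid transporter of peroxisomes, had 40.3, 15.9 and 18.7 CPM untreated and 2.21, 10.4 and 4.41 CPM with NACs (-2.13 ± 0.45, adjusted p = 0.00999). Ngly1 removes sugar chains from misfolded glycoproteins, and Hps3 is a subunit of a complex that builds lysosome-related organelles. Ngly1 had 20.6, 13.0 and 20.4 CPM untreated and 2.32, 6.89 and 4.66 CPM with NACs (-1.95 ± 0.42, adjusted p = 0.00775). Hps3 had 16.1, 13.4 and 8.05 CPM untreated and 2.21, 5.34 and 2.17 CPM with NACs (-1.94 ± 0.45, adjusted p = 0.0100). Under the GC and length offset the 16 largest changes kept their signs, with adjusted p from 0.114 to 0.405, and without NACs replicate 2 all 16 were called.

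**Figure D2:**
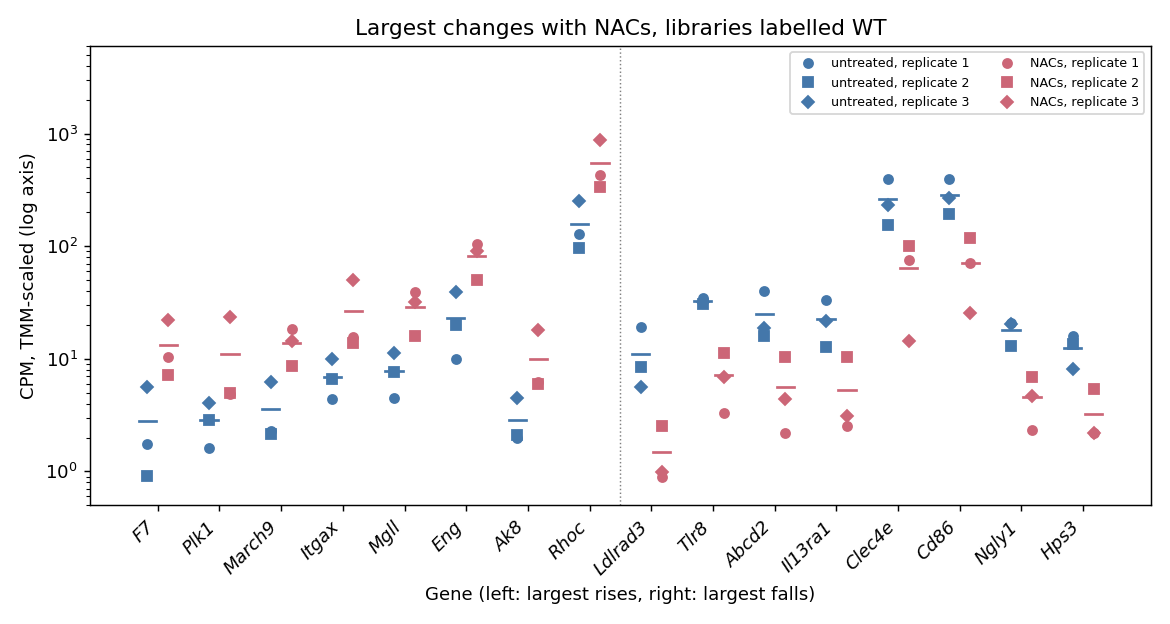
Each point is the CPM (TMM-scaled, log axis) of a gene in a library labelled WT, blue for untreated and red for NACs, with the marker shape giving the replicate and the short line the mean of 3 libraries. In the 8 genes with the largest rises by the rule above (left) every NACs library lies above every untreated library, and in the 8 with the largest falls (right) below, which the choice of genes required.

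Among the lists with 10 or more genes tested, those of antiviral defence and Toll-like receptors had the largest share of called members. In the interferon response list, 13 of 32 genes were called against 8.52% of all genes tested: 10 lower and 3 higher. Parp14, an ADP-ribosyltransferase, had 68.9, 66.6 and 35.7 CPM untreated and 13.3, 21.2 and 10.5 CPM with NACs (log2 change -1.93 ± 0.39, adjusted p = 0.00438). Ifit2, which binds viral RNA and restricts translation, had 48.2, 34.1 and 22.7 CPM untreated and 8.74, 19.9 and 5.46 CPM with NACs (-1.62 ± 0.40, adjusted p = 0.0205). Both were lower in every NACs library than in any untreated one. Stat2, the factor that carries type I interferon signals to the nucleus, fell by 1.45 on the log2 scale (± 0.38, adjusted p = 0.0218), and Ifit3 by 1.5 (± 0.40, adjusted p = 0.0245). Ifit1, Mx1, Rsad2, Cmpk2, Ifih1 and Ifi204 were also called lower. Called higher were Bst2, or tetherin, which holds budding virus at the membrane (from 211, 308 and 500 CPM to 1158, 588 and 811 CPM, log2 change 1.33 ± 0.43, adjusted p = 0.0427), together with Irf7 and Oas3.

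The median log2 change of the interferon list was -0.67, beside -0.10 over all genes tested. It was -0.44 with the offset and -1.26 without NACs replicate 2, and the list's median GC content was 48.4%. Its summed level did not fall on the TMM scale, on which that of all genes tested was higher with NACs. The list lay between 1572 and 1967 CPM untreated and between 1822 and 3054 CPM with NACs. With the offset 0 members were called, and with the offset and without NACs replicate 2, 3 were called lower and 0 higher. Of 24 members with a promoter window, 13 held the ISRE motif printed above (54.2%), 5 of the 7 with a window that were called lower and 2 of the 3 called higher. Among the genes called lower as a whole 35 of 405 windows held it (8.64%), among those called higher 11 of 410 (2.68%), and among all genes tested 354 of 8979 (3.94%).

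Toll-like receptors detect microbial products at the cell surface or, for those that bind nucleic acids, in endosomes. Of 21 receptors and adaptors tested, 5 were called lower and 1 higher (28.6%, beside 8.52% of all genes called, 4.33% lower and 4.19% higher). Beside Tlr8, the RNA sensor Tlr7 had 75, 48.8 and 44.1 CPM untreated and 9.18, 23 and 15.1 CPM with NACs (log2 change -1.82 ± 0.39, adjusted p = 0.00775). Tlr4, the receptor of lipopolysaccharide, had 46.5, 24.8 and 26.2 CPM untreated and 6.30, 13.2 and 7.14 CPM with NACs (-1.87 ± 0.40, adjusted p = 0.00775). Tlr1, which pairs with Tlr2 on lipopeptides, fell by 1.63 (± 0.42, adjusted p = 0.0218), and Tlr13, a sensor of bacterial ribosomal RNA, was called lower too. The member called higher was Ticam1, the adaptor also known as TRIF. In all, 8 of the 21 were lower and 3 higher without overlap, beside the 17.2% and 14.9% of all genes. On the TMM scale the summed level of the list was higher with NACs, as was that of all genes tested. The list held 2028 to 2764 CPM untreated and 2941 to 4907 CPM with NACs. Of the list's sum Cd14, a coreceptor of lipopolysaccharide that was not called (log2 change 1.16, adjusted p = 0.0731), held 29.1% to 63.4%. Without Cd14 the sums overlapped, at 1292 to 1562 CPM untreated and 1120 to 2047 CPM with NACs. The median of the list was -0.49, and -0.40 with the offset, where 0 members were called; with the offset and without NACs replicate 2, 4 were called lower.

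Downstream genes moved in both directions. Of 22 genes of the NF-kB pathway, 3 were called (13.6%, beside 8.52% of all genes). Map3k8, the kinase that links Toll-like receptors to ERK, had 19.5, 10.4 and 7.62 CPM untreated and 3.54, 4.8 and 2.98 CPM with NACs (log2 change -1.73 ± 0.44, adjusted p = 0.0211). Tnfaip3, the inhibitor A20, fell by 1.37 (± 0.41, adjusted p = 0.0322). Rela, the p65 subunit, rose from 86.3, 97.1 and 171 CPM to 332, 211 and 311 CPM (1.27 ± 0.40, adjusted p = 0.0396). Of 20 cytokines and chemokines tested, 2 were called, both lower, a share near that of all genes. Il1b, the precursor of interleukin-1 beta, had 5.23, 1.94 and 1.07 CPM untreated and 0.553, 0.774 and 0.310 CPM with NACs (-2.32 ± 0.70, adjusted p = 0.0332). These rest on 74, 34 and 20 counts untreated and 5, 10 and 5 with NACs. A gene this scarce can pass the filter through the untreated group alone, so nothing is read from its direction. The neutrophil attractant Cxcl2 fell by 1.46 (± 0.48, adjusted p = 0.0439). Untreated replicate 1 was the highest library for both.

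Antigen presentation had 3 of 18 genes called higher and 1, Cd86, lower (22.2%, beside 8.52% of all genes). The peptide loading chains H2-DMb1 and H2-DMa rose by 1.40 ± 0.38 and 1.13 ± 0.38 on the log2 scale (adjusted p = 0.0255 and 0.0454), and the immunoproteasome subunit Psmb8 rose from 98.8, 127 and 209 CPM to 459, 285 and 277 CPM (1.23 ± 0.41, adjusted p = 0.0448). H2-DMa overlapped between the groups, with 33.7 CPM in untreated replicate 3 and 32.9 CPM in NACs replicate 2. The median of this list was 0.63, and it was 0.14 with the offset and 0.26 without NACs replicate 1. Of 14 genes of alternative activation 0 were called. Without overlap 1 was higher and 2 were lower, beside 14.9% and 17.2% of all genes. Among these, the interleukin-4 receptor Il4ra had a log2 change of 1.08 ± 0.39 (adjusted p = 0.0589) and the mannose receptor Mrc1 one of -0.98 ± 0.38 (adjusted p = 0.0719).

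Few genes of energy metabolism were called, and the medians of their lists differed in sign. Of 26 genes of glycolysis and the hypoxia response, 3 were called, all higher (11.5%, beside 8.52% of all genes). Without overlap 9 were higher and 0 lower, beside 14.9% and 17.2% of all genes. Ldha, which makes lactate, had 320, 294 and 424 CPM untreated and 1030, 533 and 1237 CPM with NACs (log2 change 1.43 ± 0.44, adjusted p = 0.0338). Gpi1, the isomerase of the second step, rose by 1.36 ± 0.44 (adjusted p = 0.0427), and the lactate exporter Slc16a3 by 1.17 ± 0.40 (adjusted p = 0.0474); Gpi1 overlapped between the groups. The summed level of the list was 7079 to 11743 CPM untreated and 13103 to 22226 CPM with NACs. Its median was 0.56, and 0.35 with the offset. Of 43 nuclear genes of oxidative phosphorylation 1 was called (2.33%, below the 8.52% of all genes), while 18 were higher and 0 lower without overlap, beside 14.9% and 17.2% of all genes. That gene was Ndufs3, a subunit of complex I (82.0, 70.3 and 159 CPM untreated, 260, 197 and 247 CPM with NACs, 1.18 ± 0.40, adjusted p = 0.0483). The median was 0.51, and 0.30 with the offset, at a median GC content of 49.4%, below the 50.8% of all genes. Without NACs replicate 1 the median was 0.26. By contrast, 0 of 9 genes of the mitochondrial genome were called and 8 had a fitted change below 0, with a median of -0.49 that was 0.07 with the offset. The 2 smallest p-values there were those of mt-Nd5 (-0.64 ± 0.39, adjusted p = 0.231) and mt-Nd6 (-0.55 ± 0.39, adjusted p = 0.307).

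Of 77 cytosolic ribosomal protein genes, 2 were called (2.6%, below the 8.52% of all genes), and 14 were higher and 9 lower without overlap, beside 14.9% and 17.2% of all genes. Rps29 rose from 213, 162 and 299 CPM to 1083, 350 and 525 CPM (log2 change 1.54 ± 0.43, adjusted p = 0.0274) and Rplp1 by 1.33 ± 0.45 (adjusted p = 0.0487). Ribosomal protein genes have many processed copies in the genome, whose reads the counting may have split. Of 25 translation factors 0 were called; the helicase Eif4a2 had a change of -1.14 ± 0.40 (adjusted p = 0.0552) and the elongation factor Eef2 one of 1.20 ± 0.45 (adjusted p = 0.0645).

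Proliferation genes had 4 of 27 members called, all higher (14.8%, beside 8.52% of all genes called and 4.19% called higher). Beside Plk1 these were the mitotic activator Cdc20 (1.42 ± 0.44, adjusted p = 0.0408), the replication licensing factor Mcm2 (1.23 ± 0.41, adjusted p = 0.0442) and the cell cycle factor E2f1 (1.13 ± 0.38, adjusted p = 0.0450). Cdc20 had 2.48, 7.12 and 10.6 CPM untreated and 9.95, 13.6 and 30.5 CPM with NACs, and Mcm2 had 8.13, 8.09 and 7.62 CPM untreated and 12.2, 10.3 and 33.3 CPM with NACs. NACs replicate 3 was the highest library for all 4 genes. The list's median was 0.72, and 0.75 with the offset. Its summed level overlapped between the groups, at 472 to 708 CPM untreated and 449 to 723 CPM with NACs. Without NACs replicate 3 the median was 0.15 with 0 called, and the offset together with the loss of that library turned the fitted change of Mcm2 to -0.24. Of 24 clustered histone genes 0 were called, with Hist1h4c at 0.90 ± 0.43 (adjusted p = 0.135) and Hist1h2bj at 1.43 ± 0.72 (adjusted p = 0.150).

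In the lists of stress responses and cell death the share of called genes lay between 6.25% and 11.5%, near the 8.52% of all genes. The immediate early list had 3 of 26 genes called, all higher: Fosb (0.495, 0.741 and 1.87 CPM untreated, 4.09, 2.94 and 5.40 CPM with NACs, log2 change 1.98 ± 0.59, adjusted p = 0.0322), Jund (1.44 ± 0.44, adjusted p = 0.0332) and Csrnp1 (1.27 ± 0.41, adjusted p = 0.0417). Fosb and Jund are AP-1 subunits. The median of this list, 0.51, was 0.00 with the offset and 0.23 without NACs replicate 3. In the unfolded protein and integrated stress response, 2 of 23 genes were called: Trib3 (1.41 ± 0.39, adjusted p = 0.0269) and Ddit3, or CHOP (12.0, 21.1 and 31.0 CPM untreated, 61.7, 40.2 and 46.2 CPM with NACs, 1.21 ± 0.38, adjusted p = 0.0372). Among 16 heat shock genes the small chaperone Hspb1 was called (1.99 ± 0.62, adjusted p = 0.0429), from 1 count in untreated replicate 1; without NACs replicate 2 it was not (adjusted p = 0.0975). In the antioxidant list of 21 genes, catalase and glutathione peroxidase moved apart. Cat had 75.2, 62.0 and 39.3 CPM untreated and 12.6, 26.9 and 13.9 CPM with NACs (-1.72 ± 0.38, adjusted p = 0.00921). With the offset its change was -1.84 and it was not called (adjusted p = 0.114). Gpx1 rose from 379, 298 and 634 CPM to 1474, 699 and 1232 CPM (1.38 ± 0.44, adjusted p = 0.0396). Of 28 cell death genes 3 were called: the caspase inhibitor Xiap fell by 1.62 (± 0.38, adjusted p = 0.0125), the death receptor Fas by 1.46 (± 0.45, adjusted p = 0.0399), and the necroptosis kinase Ripk3 rose by 1.25 ± 0.42 (adjusted p = 0.0448).

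Few genes that take up and digest cells were called. On the TMM scale the summed levels of 3 of their lists were higher with NACs without overlap, as was that of all genes tested. Of 24 receptors and bridging proteins for apoptotic cells 1 was called (4.17%, below the 8.52% of all genes). Of 25 efferocytosis genes named by the study, in part from other libraries of the series, 1 was called (4.0%). In both lists the gene was Mfge8. It encodes the bridging protein MFG-E8 and had 148, 116 and 472 CPM untreated and 958, 421 and 2058 CPM with NACs, so NACs replicate 2 lay under untreated replicate 3 (log2 change 2.22 ± 0.57, adjusted p = 0.0283). The medians of both lists were -0.22 and 0.00. The receptors and bridging proteins summed to 8429 to 11627 CPM untreated and 11910 to 22513 CPM with NACs, and the efferocytosis genes to 10075 to 15702 CPM untreated and 17143 to 27807 CPM with NACs. Lgals3, which encodes galectin-3 and was not called (adjusted p = 0.104), held 57.6% to 72.1% of the latter sum in each library, and without it the sums overlapped, at 4271 to 6020 CPM untreated and 5811 to 8109 CPM with NACs. Cd5l, the macrophage protein the study centres on, had 15.4, 210 and 145 CPM untreated and 276, 172 and 109 CPM with NACs (0.59 ± 0.94, adjusted p = 0.684); untreated replicate 1, the library lowest in Hdac3, was also the lowest here. Cd36, a scavenger receptor, had 292, 256 and 279 CPM untreated and 59.2, 230 and 186 CPM with NACs (-0.80 ± 0.41, adjusted p = 0.156), lower in every NACs library but not called. Axl (-0.23 ± 0.38, adjusted p = 0.685) and Lrp1 (-0.81 ± 0.41, adjusted p = 0.149), both receptors of uptake, and the oxysterol receptor gene Nr1h3 (0.45 ± 0.41, adjusted p = 0.440) were not called.

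The engulfment list had 2 of 27 genes called, both lower (7.41%, near the 8.52% of all genes). Abi1, of the WAVE complex, had 230, 160 and 222 CPM untreated and 48.3, 128 and 50.3 CPM with NACs (log2 change -1.44 ± 0.40, adjusted p = 0.0269). Actr3, of the Arp2/3 complex, had 1124, 778 and 1430 CPM untreated and 268, 715 and 258 CPM with NACs (-1.43 ± 0.44, adjusted p = 0.0370). In both, NACs replicate 2 lay nearer to the untreated libraries than to the other NACs libraries. No gene of this list was higher without overlap and 6 were lower, beside 14.9% and 17.2% of all genes. The median of -0.33 was -0.39 with the offset and -0.19 without untreated replicate 2. Of 13 inhibitory signals and receptors 0 were called, with Cd24a at -0.86 ± 0.39 (adjusted p = 0.116) and Ptpn11, the phosphatase SHP2, at -0.74 ± 0.38 (adjusted p = 0.153). Of 36 lysosomal genes 2 were called (5.56%, below the 8.52% of all genes): the protease Ctsc fell by 1.62 (± 0.42, adjusted p = 0.0218) and acid glucosidase, Gaa, rose by 1.24 ± 0.40 (adjusted p = 0.0396). The median of that list was 0.45, and it was 0.24 with the offset and 0.28 without NACs replicate 1. Without overlap 10 of its genes were higher and 5 lower, beside the same 14.9% and 17.2%, and its summed level was 44009 to 66529 CPM untreated and 67821 to 114190 CPM with NACs.

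In lipid and iron handling the shares called were below the 8.52% of all genes, and those of metalloproteinases (20.0%) and HDAC3 corepressor complexes (23.1%) rest on 3 genes each. The cholesterol exporter Abca1 was the 1 called of 20 LXR targets. It had 186, 169 and 107 CPM untreated and 30.6, 67.6 and 63.8 CPM with NACs (log2 change -1.51 ± 0.39, adjusted p = 0.0218), opposite to the median of its list, 0.39. That median was -0.05 with the offset and -0.07 without NACs replicate 3. In cholesterol synthesis 2 of 25 genes were called in opposite directions, Hmgcs1 at -1.39 ± 0.43 (adjusted p = 0.0390) and Pmvk at 1.34 ± 0.39 (adjusted p = 0.0304). Ncoa4, which delivers ferritin to lysosomes, was the 1 called of 21 iron and heme genes (-1.45 ± 0.38, adjusted p = 0.0218). Of 15 metalloproteinases and inhibitors, the sheddases Adam17 and Adam10 fell by 1.47 and 1.39 (± 0.38 and 0.39, adjusted p = 0.0218 and 0.0269), and the gelatinase Mmp9 rose by 2.06 ± 0.48 (adjusted p = 0.0218), with overlap. Of 13 genes of HDAC3 corepressor complexes, Gps2 (1.13 ± 0.38, adjusted p = 0.0443) and Hdac5 (1.18 ± 0.40, adjusted p = 0.0482) rose and Tbl1x (-1.12 ± 0.38, adjusted p = 0.0491) fell. The nuclear RNA Neat1 was the 1 called of 12 noncoding genes (-1.21 ± 0.40, adjusted p = 0.0455).

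Markers of macrophages were abundant in every library. Their summed level was 28013 to 42009 CPM untreated and 39637 to 63079 CPM with NACs. Of 24 markers 1 was called (4.17%, below the 8.52% of all genes), the myeloid factor Cebpa. It had 193, 195 and 233 CPM untreated and 831, 305 and 533 CPM with NACs (1.42 ± 0.42, adjusted p = 0.0320). Lyz2, lysozyme M, had 14724, 7416 and 4399 CPM untreated and 3631, 6485 and 1885 CPM with NACs (-1.14 ± 0.49, adjusted p = 0.0937). K562 cells are human and resemble early red cells, so remaining NACs could be seen only where human reads were counted to a mouse gene. Of the K562 and erythroid list 6 genes passed the filter and 0 were called. On the TMM scale, on which all genes tested also summed higher with NACs, the list's sum was 166 to 256 CPM untreated and 280 to 299 CPM with NACs. Lyl1 (0.65 ± 0.39, adjusted p = 0.228) held most of that sum, and Epor had a change of 1.28 ± 0.81 (adjusted p = 0.247). Gata1, the erythroid transcription factor, had 0, 6 and 6 counts untreated and 0, 1 and 20 with NACs. The part of remaining NACs in the results was not tested.

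Of 14 granulocyte markers 13 passed the filter and 1 was called, Mmp9 (7.69%, near the 8.52% of all genes). The summed level of the list was 298 to 1333 CPM untreated and 839 to 1257 CPM with NACs. Of 13 B and T cell markers 4 passed the filter and Cd79b was called (1.63 ± 0.48, adjusted p = 0.0308) at 1.41 to 12.9 CPM. Of 10 dendritic cell markers 3 passed and 2 were called, Itgax and Bst2, which macrophages express as well. The defining genes Flt3 and Zbtb46 had at most 16 counts in any library. The B and T cell and dendritic cell shares called were above the 8.52% of all genes, but rest on 4 and 3 genes. Mast cell and megakaryocyte markers (Itga2b at 1.71 ± 1.43, adjusted p = 0.443; Pf4 at -0.40 ± 0.39, adjusted p = 0.468) and stromal markers (Postn at -2.14 ± 0.76, adjusted p = 0.0575; Thy1 at 1.30 ± 0.79, adjusted p = 0.231) had 0 called of 4 and of 10. In a bulk library, a different share of a cell type and a different amount of RNA per cell cannot be told apart, and the part of these markers in the results was not tested.

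Few genes of development and of neurons passed the filter on low counts. Over all genes tested, 8.52% were called. Of 50 developmental transcription factors 7 passed and 1 was called: Twist1, a factor of mesoderm, had 8, 1 and 1 counts untreated and 87, 19 and 29 with NACs (4.28 ± 0.83, adjusted p = 0.00775). Of 26 neuronal genes 4 passed and 1 was called: Stmn2, a regulator of microtubules in axons, had 17, 3 and 2 counts untreated and 83, 26 and 39 with NACs (3.23 ± 0.74, adjusted p = 0.0179). For both, the fold change rests on 1 to 17 counts in the untreated libraries. Genes this scarce can pass the filter through the group in which they are higher alone, so nothing is read from the direction of those that passed.

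**Figure D3:**
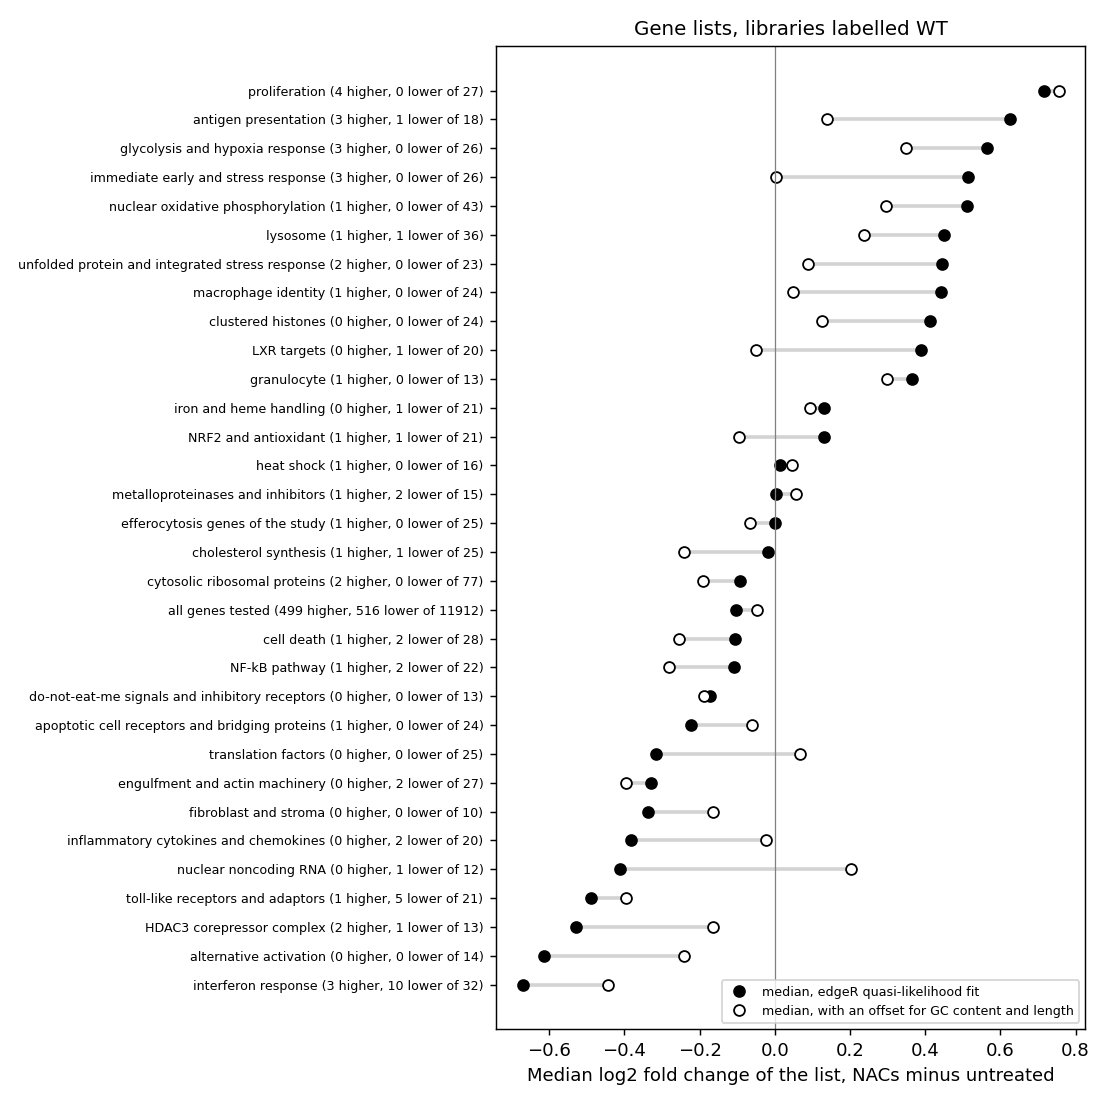
Filled circles give the median log2 fold change (horizontal axis, NACs minus untreated, libraries labelled WT) of each gene list with 10 or more genes tested and of all genes, and open circles the same median under the GC and length offset; counts of called genes stand beside each name. The interferon response lies lowest at -0.67 (open circle -0.44) and proliferation highest at 0.72 (open circle 0.75).

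The direction of change followed the base composition of the genes. Over 11893 genes with a known sequence, the log2 fold change and the GC content of the transcript had a Spearman correlation of 0.66, given as a description over genes that share the same 6 libraries. Genes called higher had a median GC content of 56.6% and those called lower 44.7%, beside 50.8% over all genes. In the 1190 genes lowest in GC content the median log2 fold change was -0.75, with 1 gene called higher and 144 lower. In the 1189 genes highest in GC content it was 0.82, with 149 higher and 0 lower. The correlation of a library's deviations with GC content was -0.56, -0.56 and -0.31 in the untreated libraries and 0.61, -0.05 and 0.56 with NACs (p = 0.1, exact permutation test, two-sided). NACs replicate 2 was nearly flat. After the offset the correlation of the fold changes was 0.01, and 0 genes were called, as given above.

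**Figure D4:**
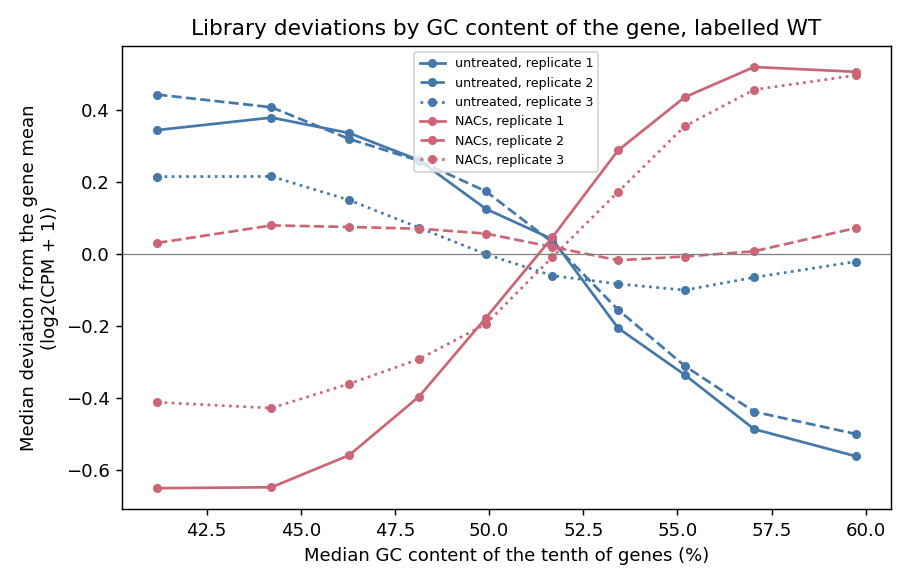
Each line is a library labelled WT, blue for untreated and red for NACs; the horizontal axis is the median GC content (%) of each of 10 equal groups of the genes tested and the vertical axis the median deviation of log2(CPM + 1) from the gene's mean over the 6 libraries. NACs replicates 1 and 3 run from -0.65 and -0.41 at low GC content to 0.51 and 0.50 at high GC content, untreated replicates 1 and 2 run the other way, and NACs replicate 2 stays between -0.02 and 0.08.

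The same pair of treatments in libraries labelled KO, which share no library with those labelled WT, gave changes in the opposite direction. There 794 of 12143 genes were called (6.54%), 753 higher (6.2%) and 41 lower (0.338%) with NACs. The Wald test of DESeq2 called 1330 higher and 979 lower there, and edgeR without KO untreated replicate 1 called 2713 higher and 1728 lower. Leaving out any other KO library gave 0 calls by edgeR, with 2026 to 3463 genes at an unadjusted p under 0.05. Under the GC and length offset, with size factors of DESeq2 or with replicate numbers as a block, 0 were called by edgeR, with 2041, 4004 and 2882 at an unadjusted p under 0.05. Of the 1014 genes called in WT and tested in KO, 1010 had the opposite fitted direction, as had 10038 of the 11636 genes tested in both. The 288 genes called in both, 28.4% of the WT calls and 36.3% of the KO calls, all had opposite directions. The interaction of genotype label and treatment was called in 4530 of 13005 genes (34.8%), and in 1583 with the offset. Of the 1015 genes called in WT, 989 had an interaction call (97.4%).

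Tlr8, which fell in WT, had a log2 change of 2.20 ± 0.66 in KO (adjusted p = 0.0661), and the difference between the responses was 4.48 (adjusted p = 0.00123). Cd86 rose in KO by 3.14 ± 0.41 (adjusted p = 0.0353, difference 5.27, adjusted p = 0.000636), and Ldlrad3 by 2.71 ± 0.69 (adjusted p = 0.0478, difference 5.69, adjusted p = 0.000818). Stat2 and Ifit3 had no interaction call: they stood at 0.30 ± 0.69 and 0.88 ± 0.78 in KO, with interaction adjusted p of 0.0885 and 0.108. The correlation of the fold change with GC content was -0.63 in KO, opposite in sign to that in WT. Over log2(CPM + 1), WT untreated libraries had a median r of 0.972 with KO NACs libraries, 0.888 with KO untreated libraries, 0.939 with WT NACs libraries and 0.966 among themselves. WT NACs libraries had a median r of 0.947 with KO NACs libraries, 0.946 with KO untreated libraries and 0.951 among themselves. The KO library closest to each WT library was KO NACs replicate 1, 3 and 2 for untreated replicates 1, 2 and 3 (r = 0.981, 0.975 and 0.986), KO untreated replicate 2 for NACs replicates 1 and 3 (r = 0.968 and 0.980), and KO NACs replicate 2 for NACs replicate 2 (r = 0.982). Thus 5 of the 6 WT libraries were closest to a KO library of the other treatment label. Whether any library carries the genotype or treatment label of another was not tested, and no gene used here checks either label. The directions in KO, the opposite signs and the interaction calls are those of libraries as labelled, and exchanged labels would change what they compare.

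**Figure D5:**
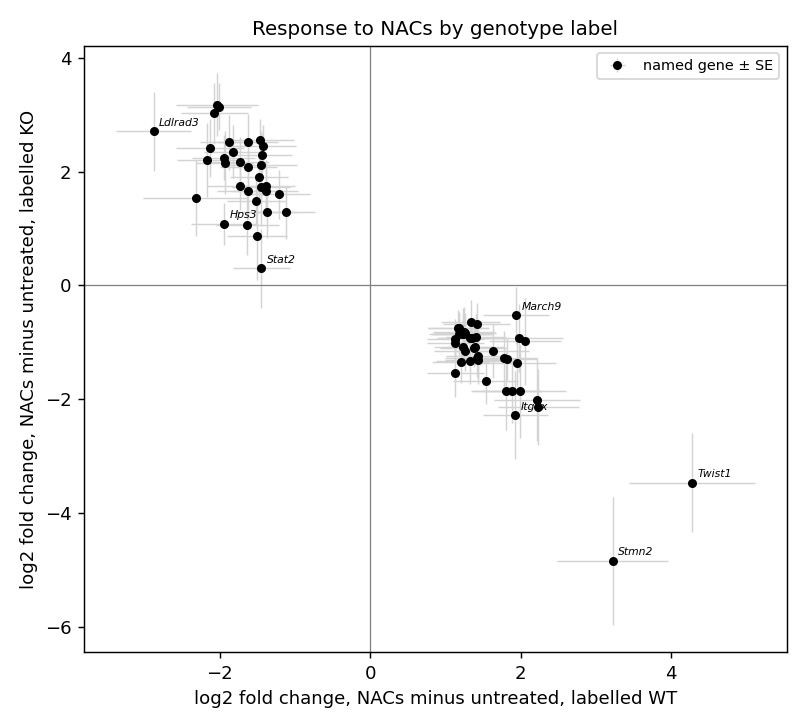
Each point is a named gene called in libraries labelled WT, with its log2 fold change (NACs minus untreated) in WT on the horizontal axis and in KO on the vertical axis; bars are standard errors (3 libraries per group). All 72 genes lie at the upper left or the lower right, with Stat2 nearest to 0 in KO at 0.30 and Stmn2 farthest at -4.84.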

How the data were processed

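RNA was measured in 18 libraries as counts per gene, deposited by the authors without normalization. The submitters' processing notes name GRCm38, Trimmomatic 0.36, STAR 2.5.2b, featureCounts and Subread 1.5.2, and the strand setting is not given in the sources used here. Counts of 6 libraries labelled WT were tested with edgeR 4.0.16 (R 4.3.3): filterByExpr chose the genes, at a minimum count of 10 and a minimum total of 15, and they were scaled with TMM factors and tested with a robust quasi-likelihood fit, with Benjamini-Hochberg adjustment and a threshold of 0.05. The KO comparison and the interaction used the same steps over their own libraries. GC content and length came from GENCODE M21 transcripts, found for 48970 of 49315 genes, and entered as a smooth offset per library (mgcv 1.9.3). Correlations used log2(CPM + 1). Named genes were the 8 largest changes per direction among called protein-coding genes without overlap and with a mean of 10 CPM or more in the higher group, 7 genes of the study, and from each of 38 lists the called genes with the smallest p (at most 4, or 2 where 0 were called). The members and lists were chosen with earlier results of these data known. Alternatives were DESeq2 1.42.0, limma 3.58.1, other filters and scalings, more libraries in the fit, the replicate number as a block, and each library left out; leaving libraries out together with the offset, and leaving out both libraries low in Hdac3, were chosen after seeing the data. In a test on simulated data over 11912 genes with 200 changed, edgeR recovered 77 of 100 genes changed 4-fold, 10 of 100 changed 2-fold, and called 4 unchanged genes. The simulated libraries had no deviation that followed GC content and no library standing apart as NACs replicate 2 did. The test therefore does not show how many calls in the real libraries are false.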

Additional observations from a re-analysis of the deposited data

Results flagged for a closer look

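The responses to NACs differed between the genotype labels in 4530 genes by the test of the interaction itself (edgeR's quasi-likelihood test, 3 libraries in each of 4 groups), and 989 of the genes called in WT were among them. The difference is given as the KO response minus the WT response on the log2 scale, so that a negative value means that the KO response lay below the WT response. Lyz2, Cd36, Lrp1, Pf4, Cd24a, Mrc1, Eif4a2, Thy1, Il4ra, Eef2 and Hist1h4c are given below although they were not called in WT. Each gene below passed an adjusted p of 0.05 for this difference, and WT chose most of the genes, so the WT part of each value is not independent of the choice.

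Among the 8 largest rises and 8 largest falls in WT, by the rule for named genes, the difference was -4.27 for F7, -3.19 for Plk1, -2.37 for March9, -4.09 for Itgax, -3.62 for Mgll, -3.01 for Eng, -3.54 for Ak8 and -2.95 for Rhoc, and it was 5.69 for Ldlrad3, 4.48 for Tlr8, 4.66 for Abcd2, 5.22 for Il13ra1, 5.33 for Clec4e, 5.27 for Cd86, 4.31 for Ngly1 and 3.15 for Hps3.

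Stmn2 and Twist1, at -7.91 and -7.61, rest on 1 to 17 counts in the untreated libraries labelled WT, so that the size of their difference is poorly fixed. Genes this scarce can pass the filter through the groups in which they are higher alone, so nothing is read from their sign either. The other genes with a negative difference had values of -4.12 for Mfge8, -3.72 for Hspb1, -3.71 for Thy1, -3.09 for Rps29, -2.81 for Fosb, -2.65 for Cd79b and -2.62 for Ldha. Further negative values were -2.59 for Cebpa, -2.57 for Jund, -2.53 for Rplp1, -2.53 for Gps2, -2.44 for Ddit3, -2.37 for H2-DMb1, -2.36 for Eef2, -2.35 for Gpx1 and -2.31 for Csrnp1. Next in size were -2.21 for Gaa, -2.19 for Trib3, -2.16 for Gpi1, -2.14 for Bst2, -2.04 for Hist1h4c, -2.01 for E2f1, -2.00 for Rela, -1.98 for Cdc20 and -1.97 for Psmb8. The smallest negative values were -1.97 for H2-DMa, -1.96 for Mcm2, -1.96 for Ripk3, -1.92 for Hdac5, -1.90 for Il4ra, -1.86 for Pmvk, -1.82 for Ndufs3 and -1.80 for Slc16a3.

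Positive differences were 4.5 for Tlr4, 4.29 for Tlr7, 4.26 for Ifit2, 4.2 for Parp14, 4.13 for Fas, 4.02 for Cat, 3.99 for Actr3, 3.97 for Il1b and 3.85 for Abi1. The value of Il1b rests on 5, 10 and 5 counts in the NACs libraries labelled WT. Further positive values were 3.84 for Xiap, 3.72 for Cxcl2, 3.61 for Map3k8, 3.50 for Adam17, 3.39 for Ctsc, 3.39 for Lyz2, 3.29 for Ncoa4, 3.28 for Adam10 and 3.26 for Cd24a. They were followed by 3.19 for Hmgcs1, 3.12 for Abca1, 3.09 for Eif4a2, 2.94 for Neat1, 2.90 for Mrc1, 2.79 for Tnfaip3, 2.79 for Tlr1, 2.54 for Tbl1x and 2.15 for Cd36. The smallest positive values were 1.70 for Pf4 and 1.43 for Lrp1.

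Dixon's test for a single outlying sample was not applied to groups of 3 libraries.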

How the results depend on the processing

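In libraries labelled WT, 1015 genes were called, and 0 of them had the other sign under any alternative planned beforehand. With the 9 control-genotype libraries or all 18 in 1 fit, with library totals alone or under the GC and length offset, 0 genes were called by edgeR, with 3852, 3275, 3437 and 1928 at an unadjusted p under 0.05. Library totals moved the median log2 fold change of all genes from -0.10 to -0.47. The count was 1717 by limma-voom, 1679 by the Wald test of DESeq2, 454 without a filter, and 1093 and 1466 with size factors of DESeq2 and with 10 counts required in every library. The replicate numbers pair the samples in name only (same-number correlations of deviations 0.02, 0.15 and 0.09): as a replicate block they gave 1784 calls, and 94 together with the offset, and not every library correlated best with its own number. Leaving out each library gave 21 to 4232 calls, and with the offset 0 to 624, of which untreated replicate 1 left out gave 20. Leaving out both libraries low in Hdac3 gave 19, and 40 with the offset. There, the fitted log2 change of Plk1 turned to -0.049, of Cdc20 to -0.00732 and of Mcm2 to -0.18; with the offset Mcm2 was -0.24 without NACs replicate 3 and Hdac5 -0.040 without NACs replicate 1. The cause was not tested.

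In KO, the 794 calls became 2112 with library totals, 1608 by limma-voom, 1479 without a filter and 2309 by the Wald test. They became 0 with the offset, the replicate block, both, or size factors of DESeq2. Without KO untreated replicate 1, which had the fewest counts (4704491), there were 4441 calls, and leaving out any other KO library gave 0. The 4530 interaction calls became 1583 with the offset and 1213 with the offset and the replicate block. Of the 72 named genes called in WT, 70 stayed called without NACs replicate 2 and 0 with the offset. Leaving out a library moved no library measure by more than the larger standard deviation of the groups, though some moved by more than the smaller. Without NACs replicate 1 the difference in genes with 10 or more counts went from -549 to -166 (standard deviation 312 untreated, 731 with NACs). The limit given for a count of 0 covers counting error only, and standard errors and p-values measure the spread between these libraries.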

Other observations

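Beside Twist1 and Stmn2, 3 other genes of development and of neurons were picked after their values had been seen, and are given as values with no test. Hand2, a transcription factor of heart and limb, had 6, 1 and 2 counts in the untreated libraries labelled WT and 123, 16 and 35 with NACs (log2 fold change 4.85 ± 0.92). Elavl4, an RNA-binding protein of neurons, had 14, 0 and 3 counts untreated and 65, 42 and 67 with NACs (3.71 ± 0.74). Six3, a factor of forebrain and eye, had 9, 3 and 1 counts untreated and 56, 15 and 19 with NACs (3.31 ± 0.79).

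Their counts in libraries labelled KO are given with no test either. Hand2 had 7, 30 and 49 counts untreated and 5, 0 and 1 with NACs. Elavl4 had 7, 27 and 56 counts untreated and 5, 1 and 1 with NACs. Six3 had 5, 13 and 24 counts untreated and 4, 0 and 1 with NACs. Stmn2 had 23, 27 and 48 counts untreated and 5, 0 and 0 with NACs, where a count of 0 allows up to 3 counts.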
